A study of Mus musculus with 48 samples.

Results

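The genes described here make, load or remodel plasma lipoproteins. They are Apoa1, Apoa2, Apoa4, Apoa5, Apoc3, Apob and Apoe, which encode apolipoproteins, Mttp, Lcat and Lipc. Every probe whose accession maps to one of these symbols was taken, which gave 16 probes for the 10 genes, out of 41174 probes and 18434 named genes on the array. Apob had 5 probes, Apoa5 and Apoc3 had 2 each, and the other genes had 1. Where a gene had several, the probe with the highest mean signal over both channels represents it. Levels are given as the log2 ratio of mouse RNA over a common reference RNA, so that 0 means the same signal as the reference and a difference of 1 means a doubling.

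The samples were liver and colon tissue of C57/BL6 mice aged 12 weeks, described in the methods as male, whose dams and whose own diet after weaning were either sufficient (H) or low (L) in Se and folate. The first letter of a group names the diet of the dam, before mating and through gestation and lactation, and the second letter the diet eaten from weaning. HH mice therefore received H throughout, LL mice received L throughout, HL mice went from H to L at weaning and LH mice from L to H. The methods describe both diets as high in fat, so no group was on a low-fat diet, and H as supplemented and L as marginally deficient. Se and folate were always changed together. The methods add that mice were fasted and refed before sampling and that offspring were allocated at random at weaning; which mice shared a dam was not given in the sources used here. The liver set held 5 HH, 6 HL, 6 LH and 6 LL mice, because 2 of the 24 liver arrays carry the same HH animal and were averaged, and the colon set held 6 mice of each group. No animal was labelled for both tissues. The methods describe 6 male offspring per diet group and the collection of both colon and liver. Livers and colons may therefore come from the same mice, which the labels do not settle. Comparisons between the tissues treated them as separate mice. The reference is described as pooled intestinal and liver RNA in the methods but as whole pregnant mouse and foetus in the text deposited with the arrays. A ratio to it was therefore compared between mice and tissues, and not between genes.

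Lipoproteins carry triglyceride and cholesterol through plasma. In the liver, microsomal triglyceride transfer protein (Mttp) loads lipid on to apolipoprotein B (Apob) as it is made, which forms the very low density particle. Apolipoproteins A-I and A-II (Apoa1, Apoa2) are the main proteins of high density lipoprotein, and lecithin-cholesterol acyltransferase (Lcat) esterifies the cholesterol that this particle collects. Apolipoprotein E (Apoe) is the ligand that lets receptors clear remnant particles, apolipoprotein C-III (Apoc3) slows the removal of triglyceride, apolipoprotein A-V (Apoa5) speeds it, and hepatic lipase (Lipc) hydrolyses lipid of remnants and of high density particles. Apolipoprotein A-IV (Apoa4) is made with chylomicrons in the small intestine and also in mouse liver. Apoa1, Apoc3, Apoa4 and Apoa5 lie next to each other on chromosome 9, in that order.

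Start-site windows of the genes whose levels differed most between mice or diets are shown first, because the liver regulators of these genes act in part through such regions. RefSeq windows (build GRCm38.p6, 250 bases before to 50 bases after a start site) were found for 9 of the 10 genes, 14 windows in all, and none was at hand for Apoc3. Both strands were searched for CAAAGNNCA, a relaxed form of the HNF4 site, and for the TATA box TATAAA, which share no overlap in the windows shown. Capitals mark matches, as read on the strand of the gene.
Apoa4, chr9:46240594-46240893, + strand: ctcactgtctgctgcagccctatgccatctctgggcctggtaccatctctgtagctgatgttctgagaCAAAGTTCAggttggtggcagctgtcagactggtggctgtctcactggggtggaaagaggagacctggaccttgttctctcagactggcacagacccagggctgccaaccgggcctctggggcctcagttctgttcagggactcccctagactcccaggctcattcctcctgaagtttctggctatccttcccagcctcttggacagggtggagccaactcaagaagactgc
Apob, chr12:7977427-7977726, + strand: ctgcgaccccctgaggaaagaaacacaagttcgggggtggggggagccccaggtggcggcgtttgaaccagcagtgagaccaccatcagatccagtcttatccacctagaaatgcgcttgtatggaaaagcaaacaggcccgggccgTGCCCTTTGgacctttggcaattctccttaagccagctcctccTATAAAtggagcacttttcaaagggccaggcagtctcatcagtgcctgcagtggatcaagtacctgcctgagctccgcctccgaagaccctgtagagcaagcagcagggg
Lipc, second of its 2 windows, chr9:70934759-70935058, - strand: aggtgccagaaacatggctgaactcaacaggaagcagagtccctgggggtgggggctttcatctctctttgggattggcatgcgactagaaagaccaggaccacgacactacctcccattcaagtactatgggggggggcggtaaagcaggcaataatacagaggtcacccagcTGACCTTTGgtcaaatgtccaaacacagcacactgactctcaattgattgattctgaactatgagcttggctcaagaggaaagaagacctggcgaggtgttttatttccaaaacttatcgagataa
Mttp, chr3:138143369-138143668, - strand: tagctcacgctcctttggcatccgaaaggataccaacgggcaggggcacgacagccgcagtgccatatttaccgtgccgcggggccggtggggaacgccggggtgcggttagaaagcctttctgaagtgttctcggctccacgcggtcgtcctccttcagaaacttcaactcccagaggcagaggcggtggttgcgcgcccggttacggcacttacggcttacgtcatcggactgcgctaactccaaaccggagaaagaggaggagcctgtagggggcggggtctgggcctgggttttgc
The HNF4-type letters were present in these windows of Apoa4 (CAAAGTTCA, bases -182 to -174 from the start site), Apob (on the opposite strand, bases -103 to -95) and Lipc (opposite strand, bases -76 to -68), and in none of the other 11 member windows. Over all 32851 RefSeq windows of this length, 6.36% hold them. TATAAA was found in Apob at bases -60 to -55, and also in windows of Apoa2, Apoa5 and Apoe. It is present in 13.6% of all windows. The Mttp window held neither. A match describes letters only, and binding was not measured.

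All 16 probes were well above background on all 48 arrays, and none was saturated. Over whole arrays, 55.1 to 66% of spots were well above background in the liver and 66.8 to 73.7% in the colon. The tissues fit their labels: all 6 measured hepatocyte markers were called higher in the liver, by 4.99 (Tat) to 6.34 (Fgb), and all 5 goblet cell markers and 4 of 5 absorptive colonocyte markers were called higher in the colon. Signals of the female transcript Xist stood over 2 log2 units above the tissue median on 2 liver arrays (HL 2 and LL 6) and on 6 colon arrays, against the male sex given in the methods. The log2 Cy3 signal of the Y-linked transcript Eif2s3y was 6.285 on liver HL 2 and 10.63 on LL 6. Of the 6 colon arrays, HL 5, LL 1 and LL 3 read 6.304 to 7.366, and HH 1, HH 5 and LL 5 read 10.09 to 11.17. Leaving the mice with Xist out changed the count of called members in no comparison, and single values without them are given where they bear on a result. How close technical repeats were depended on the gene. For the HH liver mouse measured on 2 arrays, the arrays differed by at most 0.26 in size (Apoa2). The difference was 0.23 for Lcat, 0.18 for Lipc, 0.07 for Mttp and 0.02 for Apoa4, and the first array was the lower for every gene. For Apoa2 and Lcat it was no smaller than the liver SD within diet groups, 0.25 and 0.16. Apoa1 and Apoe are each printed on 10 spots of an array, and the SD among these spots had a median of 0.08 and 0.04 in the liver and 0.17 and 0.12 in the colon.

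The first comparison asks how the 10 genes are divided between the 2 organs. Every one was higher in the liver, by 3.53 (Lipc) to 7.15 (Apoa5) on the log2 scale with a median of 4.94, and no colon reached the lowest liver for any of them. A gene was called where its fold change exceeded 1.5 with an FDR below 0.05 in limma, here with 8 groups in 1 fit. All 10 were called, beside 14.6% of the 41171 probes tested that were called higher in the liver and 30.4% called in either direction. The median difference over all probes was 0.01. The smallest distance between the lowest liver and the highest colon was 2.21, for Apob. How many of all probes lack overlap in this way was not counted. Fewer cells of a type and less RNA per cell cannot be told apart in whole-tissue RNA. Each slide carried 1 tissue, so slide and tissue cannot be told apart either.

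**Figure D1:**
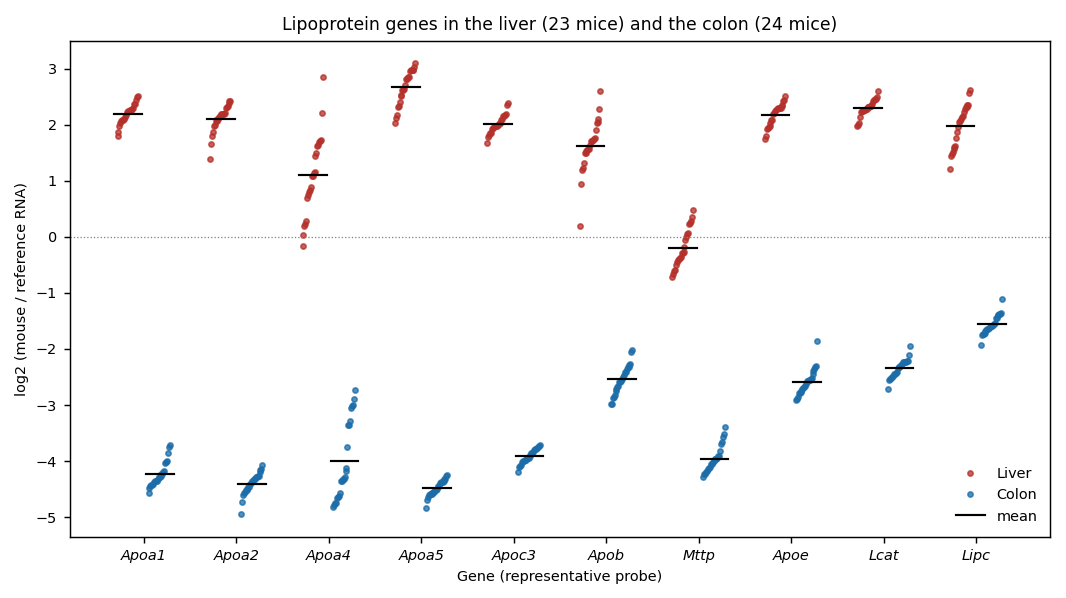
Log2 ratio of mouse over reference for each gene in every liver (red, 23 mice) and every colon (blue, 24 mice), sorted within a gene, with black bars for tissue means. Red and blue points do not overlap for any gene; Apoa4 spreads most in both tissues, and the liver points of Mttp lie around 0.

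Among the genes of high density lipoprotein, Apoa1 ranged from 1.8 to 2.51 over the 23 livers (median 2.24) and from -4.57 to -3.71 over the 24 colons (median -4.29). The difference was 6.43 ± 0.06 (SE; limma adjusted p = 1.61e-51). Apoa2 ranged from 1.39 to 2.43 in the liver and from -4.94 to -4.08 in the colon, a difference of 6.51 ± 0.07. Neither gene overlapped between the tissues. Lcat, the enzyme that acts on the same particle, was at 1.99 to 2.6 in the liver and -2.71 to -1.94 in the colon, a difference of 4.64 ± 0.05.

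The assembly pair of triglyceride-rich particles also did not overlap between the tissues. Apob was at 0.19 to 2.6 in the liver (median 1.64) and -2.98 to -2.01 in the colon (median -2.55), and Mttp at -0.72 to 0.48 and -4.28 to -3.38. Their differences were 4.17 ± 0.1 and 3.75 ± 0.08. The mean liver ratio of Mttp was -0.19, which does not give its level against other genes. The 2 regulators of triglyceride clearance had larger gaps: Apoa5 differed by 7.15 ± 0.07 and Apoc3 by 5.94 ± 0.05. Apoa4 differed by 5.12 ± 0.21, with livers from -0.17 to 2.85 and colons from -4.82 to -2.74. Apoe differed by 4.76 ± 0.06, with colons from -2.9 to -1.86. Lipc, a liver enzyme, was at 1.21 to 2.63 in the liver and -1.93 to -1.11 in the colon, a difference of 3.53 ± 0.08. Sizes for the dimmest genes depended on the scale used. With the Cy3 channel alone the difference was 5.16 for Lipc, 6.28 for Lcat and 4.86 for Mttp, and with median centring it was 2.85, 4.1 and 3.17. Second probes gave 5.54 for Apoa5 and 5.73 for Apoc3, and the other 4 Apob probes gave 3.07 to 4.34.

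Genes of the same pathway outside the 10 were not all higher in the liver. Of all probes, 14.6% were called higher in the liver and 30.4% in either direction. Of 10 other apolipoproteins measured, 7 were called higher in the liver, led by Apoh (8.03), Apof (7.81), Apoc1 (7.37) and Apoc4 (7.25). The 3 called higher in the colon were Apod, Saa1 and Saa2, with differences of -1.11, -1.66 and -1.41. Among 12 partners of assembly and secretion, 8 were called higher in the liver, such as Pla2g12b (3.59), needed for full lipid loading of particles, and Soat2 (2.49), which makes cholesteryl esters. Sort1, a sorting receptor that binds apolipoprotein B, was called higher in the colon (-3.62). Of 8 genes of plasma remodelling, 4 were called higher in the liver, including Pon1 (8.25) and Gpihbp1 (2.14), and lipoprotein lipase (Lpl) was called higher in the colon (-1.14). Receptors and sterol transporters split into 9 and 3 of 17, with Abcg5 (3.67) and Scarb1 (2.86) higher in the liver and Cubn (-2.97) and Amn (-2.35), the parts of the cubilin complex, higher in the colon. Of 17 transcription regulators, 12 were called higher in the liver, the first of them Creb3l3 (4.6), and 2 in the colon.

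Within the liver the genes differed in how steady they were from mouse to mouse. The SD within diet groups was 0.15 for Apoa1, 0.16 for Lcat and 0.18 for Apoc3, close to the median of 0.17 over all probes. Apoa4 was the least steady, with an SD of 0.74 in the liver and 0.75 in the colon, which exceeded that of 99.6% of all probes in the former and 99.8% in the latter. Its highest liver was 8.06-fold above its lowest, yet the 2 arrays of 1 mouse differed by 0.02. Apob was second in the liver with an SD of 0.45 (96.3% of probes smaller), followed by Lipc (0.35), Apoa5 (0.32) and Mttp (0.31). In the colon the SD of Lipc, 0.19, and Apoa5, 0.15, lay nearer the median of 0.16. Extremes fell on different mice. HL 4 was the lowest liver for Apoa1, Apoa2 and Apoe, and also had the lowest summed level of the 6 hepatocyte markers, 3.83 against 3.84 to 4.55. LH 5 was the highest for Apob and Mttp, and no liver but HL 4 was lowest or highest for over 2 of the 10 genes. In the colon, LL 4 was the highest mouse for 5 genes (Apoa1, Apoa4, Apoc3, Apoe and Lipc) and LL 6 the lowest for 4. The summed level of 6 Kupffer cell markers was 4.95 in LL 4 and 0.89 to 1.27 in every other colon, and that of the macrophage markers was highest there too, at 3.84. Leaving LL 4 out changed no call. The part of these cells in its levels was not tested.

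**Figure D2:**
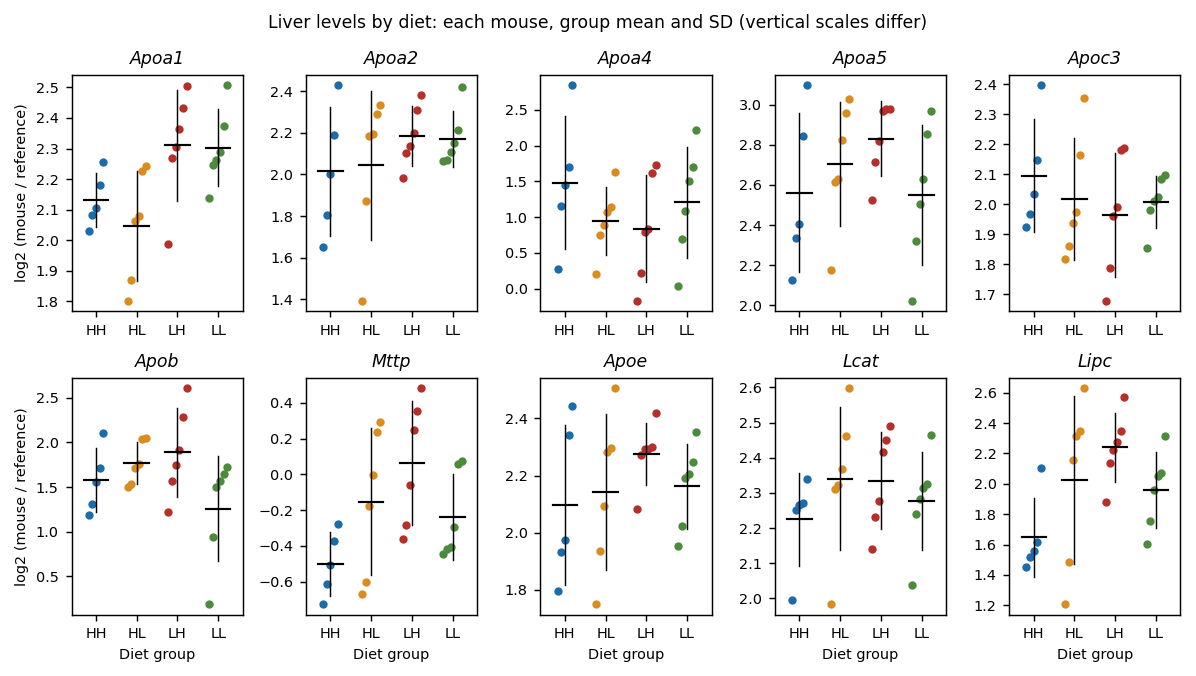
Liver log2 ratio of each gene by diet group: points are mice (5 HH, 6 in each other group), horizontal bars group means and vertical bars SD, with a separate scale for each panel. Mttp and Lipc lie lowest in HH and highest in LH, with overlap, and the groups overlap for every gene.

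Whether the diet of the dam changed these genes is asked by HH vs. LH, since both groups ate H after weaning. The lowest p-values among the 10 genes in the liver were those of Mttp and Lipc, which were on average 0.56 and 0.59 higher in LH, and neither passed the FDR limit. No member was called by limma, and 0% of all 41171 probes were called. At an unadjusted p under 0.05 there were 2 members, both higher in LH, where 12% of all probes reached that limit in either direction and 5.84% were higher in LH. The members' median difference was 0.18 against -0.01 over all probes, with 8 genes higher and 2 lower in LH.

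Mttp read -0.72, -0.61, -0.51, -0.37 and -0.28 in the 5 HH livers. In the 6 LH livers it ran from -0.36 to 0.48 with a median of 0.09. The groups overlapped through LH 3 and LH 4, which lay among the higher HH mice. The difference was 0.56 ± 0.18 (SE; 95% interval 0.19 to 0.93), a fold change of 1.48 (limma unadjusted p = 0.0045, adjusted p = 0.25). Lipc read 1.45, 1.52, 1.56, 1.62 and 2.1 in the HH livers and ran from 1.88 to 2.57 with a median of 2.25 in the LH livers. All but 1 of the HH mice lay below every LH mouse, and the exception, HH 2, is the mouse at 2.1. The difference was 0.59 ± 0.2 (95% interval 0.18 to 1.01), a fold change of 1.51 (unadjusted p = 0.0072, adjusted p = 0.27). Without HH 2 it was 0.71.

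On each of the 6 liver slides, which hold 1 array of every diet, LH was above HH for both genes, by 0.09 to 0.97 for Mttp and by 0.03 to 0.96 for Lipc. HH on 2 of these slides is the same mouse. Lcat was also higher in LH on all 6, by 0.01 to 0.15, and the share of all probes with such agreement was not counted. With slide as a block the differences were 0.6 for Mttp (limma adjusted p = 0.081) and 0.61 for Lipc (adjusted p = 0.074). The 2 arrays of the repeated HH mouse were entered as 2 there. That fit called 28 probes in all, none of a member. The order of the groups for both genes was HH, LL, HL and LH, with Lipc means of 1.65, 1.96, 2.02 and 2.24 and Mttp means of -0.5, -0.24, -0.15 and 0.06. HH and LL were not shown to differ (limma unadjusted p = 0.13 for Lipc and 0.16 for Mttp), though LL was above HH on 5 of 6 slides for both. Nor were LL and HL shown to differ (limma unadjusted p = 0.74 and 0.62). HL and LH were not tested against each other, and their means lay closer than the SD within groups, 0.35 for Lipc and 0.31 for Mttp.

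**Figure D3:**
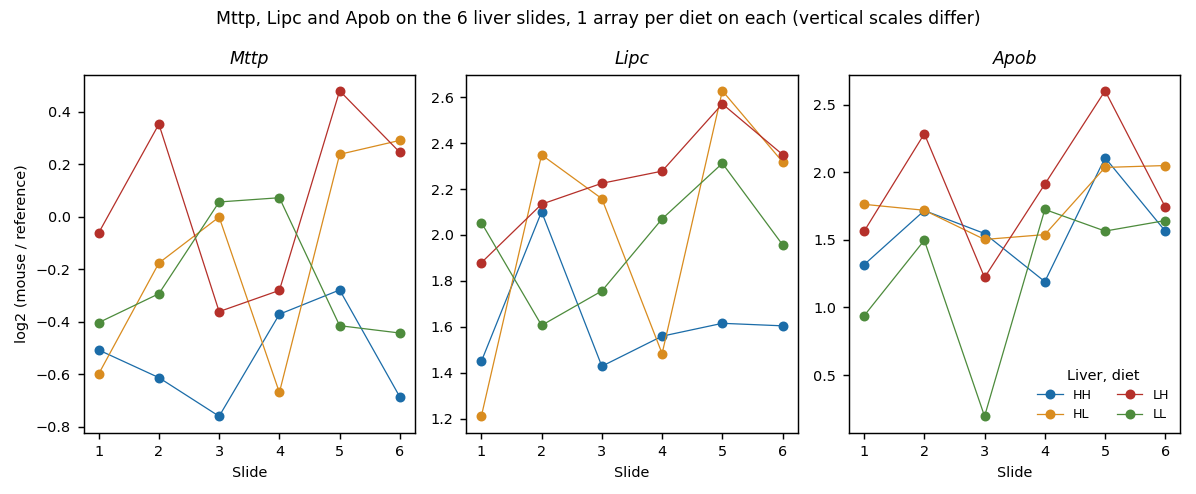
Log2 ratio of Mttp, Lipc and Apob on the 6 liver slides, with 1 point per array joined within a diet group; HH on slides 3 and 6 is the same mouse. LH (red) lies above HH (blue) on every slide for Mttp and Lipc, and above LL (green) on every slide for Apob.

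Other measures moved with this comparison. The SD of log2 ratios over an array was 0.84 to 0.87 on the HH liver arrays and 0.84 to 0.94 on the LH arrays, and LH 2, 5 and 6, which had the highest Mttp among the LH mice, were at 0.94. All 6 measured hepatocyte markers were higher on average in LH, by 0.13 to 0.52, with 1 (Fgb) at an unadjusted p under 0.05. Their summed level ran from 3.84 to 4.36 in HH and from 4.11 to 4.55 in LH. All 6 Kupffer cell markers were lower in LH, by -0.08 to -1.08, with 1 (Marco) under that p, and so were all 6 macrophage markers (-0.18 to -0.53), with 1 (Cd14) under it. Summed levels were 4.34 to 5.66 in HH and 4.14 to 5.37 in LH for Kupffer cells and 2.28 to 4.22 and 2.42 to 3.54 for macrophages. Of 4 erythroid markers 1, Hba-a1 (-0.5), was under that p, and the list's median was -0.2. All hepatocyte, Kupffer cell and macrophage markers that the array names were detected in both groups. Their part in the differences of Mttp and Lipc was not tested.

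The other 8 genes gave unadjusted p-values above 0.05 in HH vs. LH. Apoa1, the main protein of high density lipoprotein, was nearest, with 2.03, 2.08, 2.11, 2.18 and 2.26 in the HH livers and 1.99 to 2.5 in LH. Its difference was 0.18 ± 0.09 (limma unadjusted p = 0.065). Apoa2, Apoe and Lcat differed by 0.17, 0.18 and 0.11, and Apoa5 by 0.27. Processed signals of the scanner software lowered the difference of Apoa1 to 0.03 and turned Apoa2 to -0.02 and Apoe to -0.03. The Cy3 channel alone turned Apoe to -0.18. Apob differed by 0.31 ± 0.25 and Apoc3 by -0.13 ± 0.11. Apoa4 had the largest difference of all in size, -0.65 ± 0.41 (95% interval -1.5 to 0.21), and rested on single mice: HH ran from 0.28 (HH 2) to 2.85 (HH 3) and LH from -0.17 to 1.73. Without HH 3 it was -0.31, without HH 2 it was -0.95, and with slide as a block it was -0.87 (limma unadjusted p = 0.027, adjusted p = 0.22). The interval of Lcat was narrower, from -0.09 to 0.31.

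**Figure D4:**
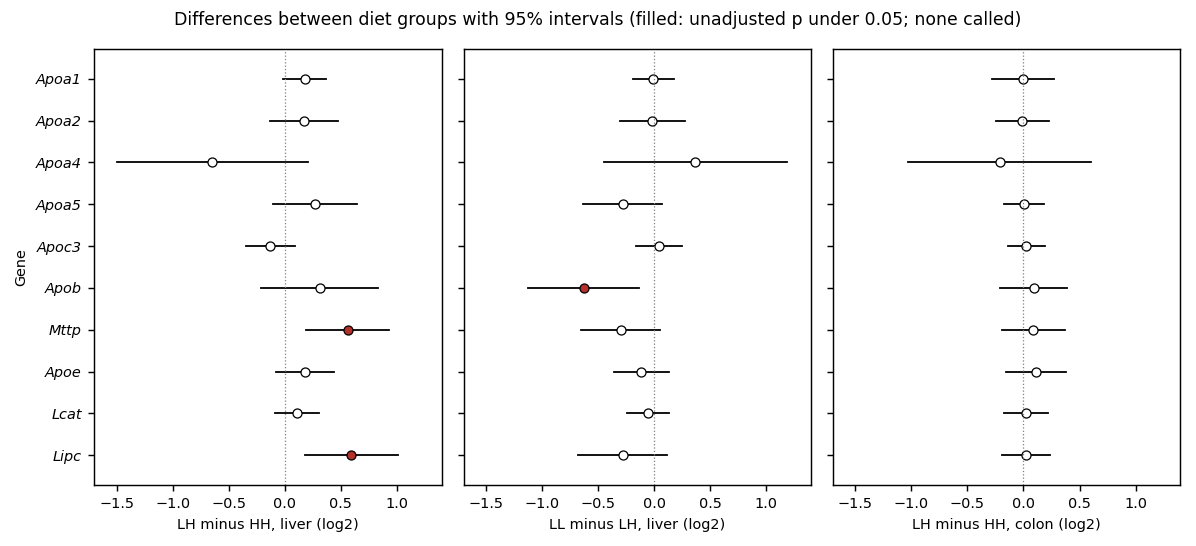
Difference between 2 diet groups for each gene on the log2 scale with its 95% interval from limma, for LH minus HH in the liver, LL minus LH in the liver and LH minus HH in the colon. Filled points have an unadjusted p under 0.05 (Mttp and Lipc on the left, Apob in the middle, none on the right) and none passed the FDR limit.

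By its representative probe, Apob had its lowest mean in the LL livers, through 2 of the 6 mice. In the 6 LL livers it ran from 0.19 to 1.73 with a median of 1.53, against 1.5 to 2.05 (median 1.74) in HL and 1.22 to 2.6 (median 1.83) in LH. LL 3, at 0.19, and LL 1, at 0.94, lay below every other liver, and the other 4 LL mice overlapped both groups. LL was lower than LH by -0.63 ± 0.24 (95% interval -1.12 to -0.13; limma unadjusted p = 0.015, adjusted p = 0.77) and lower on 6 of 6 slides. It was lower than HL by -0.51 ± 0.24 (unadjusted p = 0.045, adjusted p = 1). No member was called in either comparison, and neither was any probe (0%). Under the unadjusted limit there was 1 member of 10 in LH vs. LL, where 6.38% of probes reached it and 3.17% in this direction, and 2 in HL vs. LL, where 3.08% did. Without LL 3 the differences were -0.41 and -0.3 (limma unadjusted p = 0.058 and 0.17), and without LH 5 that from LH was -0.48 (unadjusted p = 0.052). Without the mice with Xist they were -0.7 and -0.59 (limma unadjusted p = 0.012 and 0.038). All 6 hepatocyte markers were also lower in LL than in LH, by -0.05 to -0.32 with Fgb at an unadjusted p under 0.05, as were all 5 adipocyte markers (-0.07 to -0.72). The summed adipocyte level was 3.96 in LH 4 and 0.93 to 1.42 in the other LH livers, with medians of 1.28 in LH and 1.22 in LL. All 6 Kupffer cell markers (0.15 to 0.59) and all 6 macrophage markers (0.12 to 0.31) were higher in LL. Of 4 erythroid markers Hba-a1 alone (0.58) was at an unadjusted p under 0.05, and the list's median was 0.07. Their part was not tested.

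The 5 Apob probes differed in the liver. Deviations from the group means of the representative probe, A_52_P441070, correlated at 0.99 with those of A_51_P470542 over 23 livers, at 0.75 and 0.82 with A_51_P436690 and A_51_P380650, and at 0.45 with A_51_P413088. In LL minus LH the first pair gave -0.63 and -0.56, whereas A_51_P413088 gave 0.52 (limma unadjusted p = 0.16), A_51_P436690 gave 0.03 and A_51_P380650 gave -0.21. A_51_P413088 was also opposite to the representative one in LH minus HH, at -0.57 against 0.31. Against HL, the mean of LL was lower for the first pair and higher for the other 3. These read 2.825 in LL and 2.349 in HL (A_51_P413088), 2.29 and 2.051 (A_51_P436690), and 1.931 and 1.854 (A_51_P380650). Colon levels split the probes in another way: the first pair had group means of -2.63 to -2.41, and the other 3 lay between -1.26 and -0.99. The array files hold no probe sequences, and the part of the transcript that each probe reads was not analysed here.

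**Figure D5:**
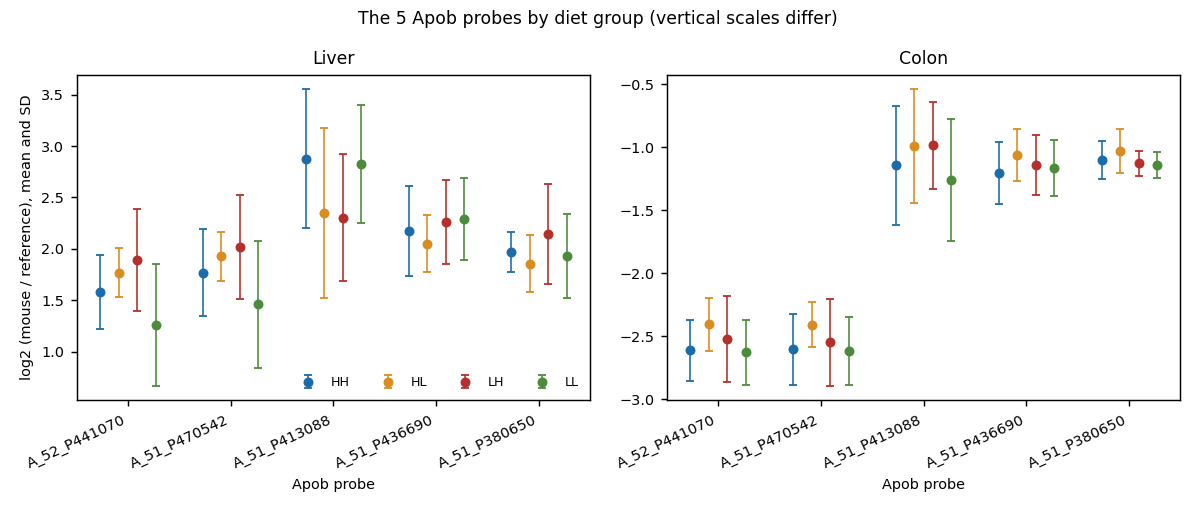
Log2 ratio of the 5 Apob probes by diet group in the liver (left) and the colon (right), as group mean and SD. In the liver, LL (green) is lowest for the first pair of probes but not for the other 3. In the colon the first pair lies near -2.5 and the other 3 near -1.

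In the other direction, Apoa1 was higher in LL than in HL. It read 1.8 to 2.24 in HL (median 2.07) and 2.14 to 2.51 in LL (median 2.27), and HL 4 and HL 2 were the lowest of all livers. The difference was 0.26 ± 0.09 (limma unadjusted p = 0.0082, adjusted p = 1), and LL was above HL on 6 of 6 slides. Without the mice with Xist, among them HL 2, it was 0.18 (limma unadjusted p = 0.066). Both groups with an L dam, LH and LL, had a mean of about 2.3, and both with an H dam had means of 2.13 and 2.05.

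The post-weaning diet alone, HH vs. HL, gave no member at an unadjusted p under 0.05, where 4.37% of probes reached it and 0% were called. Mttp and Lipc were nearest, 0.35 ± 0.18 and 0.38 ± 0.2 higher in HL (limma unadjusted p = 0.064 and 0.073). Lipc in HL split widely, with HL 1 at 1.21 and HL 4 at 1.48 below, and the other 4 between 2.16 and 2.63. HL 1, also the lowest liver for Lcat, had a summed level of pancreatic acinar markers of 3.59, against 0.02 to 0.71 in every other liver. Without it no further member was called, and its part was not tested. LH 4, the lowest liver for Apoa4, had the highest summed adipocyte markers, 3.96 against 0.75 to 2.65. HH vs. LL gave no member either (3.45% of probes, 0% called); the differences ran from -0.32 (Apob) to 0.31 (Lipc).

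Setting the groups that kept 1 diet (HH and LL) against those that were switched at weaning (HL and LH) asks whether the change itself mattered. Apob, Lipc and Mttp, the genes of particle assembly and lipolysis, differed between matched and switched groups by -0.41 ± 0.17, -0.33 ± 0.14 and -0.32 ± 0.12, lower in the matched, (limma unadjusted p = 0.027, 0.026 and 0.015; adjusted p = 0.38, 0.38 and 0.34). These 3 of 10 stand beside 11.4% of all probes under that limit and 5.95% in this direction, and no member and no probe (0%) was called. For Apob the direction turned with the probe: A_51_P470542 gave -0.36, A_51_P380650 -0.05, A_51_P436690 0.08 and A_51_P413088 0.52. Within slides the matched mean was lower on 6 of 6 slides for Apob, Apoa5 and Apoe and on 5 of 6 for Mttp, Lipc and Lcat. HH on 2 of these slides is the same mouse. The share of all probes with such agreement was not counted, here or for the pairs of groups above. All 6 hepatocyte markers were also lower in the matched groups (-0.29 to -0.02, 1 at an unadjusted p under 0.05) and all 6 macrophage markers higher (0.07 to 0.27, 1 under it). Kupffer cell markers ran from -0.15 to 0.56 with 1 of 6 under that p, and erythroid markers had a median of 0.18 with 2 of 4 under it, all 3 of these higher. Array SD ran from 0.84 to 0.94 in the matched and in the switched groups. The part of these measures was not tested. The call at the unadjusted limit was lost for Apob without LL 3 (-0.3) and for Lipc without the mice with Xist (-0.3). This contrast shares its mice with the pairwise ones above, so it is no separate evidence.

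None of the genes of the 5 pathway lists was called in liver HH vs. LH by limma. Of 12 assembly partners, 4 were higher and 1 lower in LH at an unadjusted p under 0.05, which 12% of all probes reached in either direction and 5.84% in the higher, with Surf4, a cargo receptor for lipoprotein export, at 0.42, Soat2 at 0.39 and Pla2g12b at -0.24. Their median difference was 0.2. Of 17 transcription regulators, 4 were higher and 0 lower, with a median of 0.26. They included Hnf4a (0.26), a main activator of apolipoprotein genes in hepatocytes, Rxra (0.51), the partner of many nuclear receptors, and Srebf2 (0.34), which drives cholesterol synthesis. Among 17 receptors and transporters 1 gene was higher and 1 lower, the latter the fatty acid carrier Cd36 (-0.69). Of 10 other apolipoproteins, Apoh was higher (0.34) and Apoc4 lower (-0.29), and no gene of plasma remodelling was under the limit (0 of 8). The lowest adjusted p among the genes named in this paragraph was 0.22, for Apoh. In HH vs. HL these 5 lists held 2 genes under the limit (Apoh and Hnf4a; 4.37% of all probes), in HH vs. LL also 2 (Cd36 and Hnf4a; 3.45%), and in LH vs. LL 1 (Srebf2; 6.38%).

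In the colon the 10 genes did not separate the diets. None was called in any of the 6 comparisons, where 0% of 41173 probes were called, and none had an unadjusted p under 0.05, where 3.24% of probes did in HH vs. LH, 1.46% in HH vs. HL, 1.72% in HH vs. LL, 1.02% in HL vs. LL, 2.81% in LH vs. LL and 1.79% in matched against switched groups. The lowest p among 60 tests was 0.14 (limma, unadjusted), for Apob in HL vs. LL. Differences ran from -0.3 to 0.21 on the log2 scale. The half-width of the 95% interval was 0.12 to 0.82, widest for Apoa4, whose interval in HH vs. LH ran from -1.03 to 0.6. Mttp and Lipc, the leading pair in the liver, differed by 0.09 and 0.03 in colon HH vs. LH, with intervals of -0.2 to 0.37 and -0.19 to 0.24. Colon Apoa4 ran from -4.82 to -2.9 in HH, from -4.78 to -3.02 in HL, from -4.64 to -3.06 in LH and from -4.65 to -2.74 in LL, so each diet held both low and high mice.

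The test of the difference between the tissues, LH minus HH in the liver less the same in the colon, gave 0.57 ± 0.23 for Lipc and 0.47 ± 0.23 for Mttp (limma unadjusted p = 0.016 and 0.046, adjusted p = 0.61 and 0.66). No member and no probe was called (0%), and 7.54% of probes were under the unadjusted limit, 3.55% in this direction. The liver and colon responses of these genes are therefore not shown to differ.

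Whether genes of one particle or of one gene cluster vary together was examined over the 23 livers with 6 pairs, after taking each diet group's mean away. None of the 6 had an adjusted permutation p under 0.05 (two-sided, diets kept apart). Apob and Lipc had Pearson's r = 0.34 and Spearman's rho = 0.39 (permutation p = 0.059 and 0.061, adjusted p = 0.35 and 0.34), and r = 0.26 without the 2 mice farthest from the median of Apob. Apob and its loading partner Mttp had r = 0.31 and rho = 0.34 (permutation p = 0.15 and 0.11, adjusted p = 0.46 and 0.34), and r = 0.46 without those mice. Within the cluster on chromosome 9, Apoa1 with Apoc3 had r = 0.25 (rho = 0.2; permutation p = 0.33 and 0.39, adjusted p = 0.49 and 0.59), falling to -0.05 without 2 mice. Apoa4 had r = 0.06 with Apoc3 (rho = -0.00099; permutation p = 0.782 and 0.998) and -0.26 with Apoa5 (rho = -0.3; permutation p = 0.285 and 0.199). Apoa1 with Lcat had r = -0.12 and rho = 0.003 (permutation p = 0.64 and 0.992). The adjusted p-values of these last 3 pairs ran from 0.398 to 0.998.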

How the data were processed

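The authors hybridised Cy3-labelled RNA of each mouse with a Cy5-labelled common reference on every array, without a dye swap. They deposited, per the file headers from Feature Extraction 10.10.1.1, the median intensity of each spot and its local background, not normalised. They also deposited log2 ratios, reference over mouse, with array medians of -0.001 to 0.02. They matched loess without background correction (Pearson's r at least 0.9997 per array) and served as an alternative. The submitters' processing notes name limma and R 3.0.2.

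Here a local background brighter than its spot was set to that channel's median on the array, before normexp (offset of 50) and global loess within arrays in limma 3.58.1 (R 4.3.3). Control spots and 102 to 261 outlier spots per array had weight 0. Spots of one probe were averaged as log2 ratios of mouse to reference. Accessions named 27050 of 41174 probes through RefSeq's gene list. Each tissue was fitted as 4 groups (lmFit, eBayes), probes with values in at least 2 mice of each group, with Benjamini-Hochberg adjustment over all probes, and a gene was called past a 1.5-fold change with an FDR below 0.05. The scripts were tested on simulated data. Of the 5 pathway and 11 marker lists, Apoc2, Lmf1, Cps1, Serpina1e, Cd68 and Hbb-b1 were among the genes not named on the array, and some list genes are not reported here. From each list the called genes, at most 5 by p, or else the 3 with the lowest p, were named, and a few called genes beyond these were chosen after their values were seen. The members, lists and tests were chosen with earlier results of these data known. Correlations used 100000 permutations within diets. The number of mice limits the precision. Alternatives covered background, normalisation, channel, saturation, slide, array position, the repeated mouse, dim probes, groups in the fit, weights, threshold, probe choice, mice with Xist and each mouse left out. Slide as a random block and slide with those mice left out were added after seeing the data.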

Additional observations from a re-analysis of the deposited data

Results flagged for a closer look

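Of 80 gene and group combinations (10 genes, 8 groups), 5 held a mouse far from the rest of its group by Dixon's test at the 95% level, and chance marks about 1 in 20. The colon mouse HL 4 held 3 of them: Mttp at -3.38 against -4.24 to -3.97 in the other HL colons, Apoa1 at -3.85 against -4.43 to -4.27, and Apoa5 at -4.27 against -4.65 to -4.51. In the liver, Lcat in HH 1 was at 1.995 against 2.25 to 2.34 in the other HH mice, and Lipc in HH 2 was at 2.1 against 1.45 to 1.62. On the array of liver HH 2 the SD of log2 ratios was 0.856 with the repair of the background and 0.567 without it. The part of the repair in its Lipc value was not tested. The colon HL 4 also had the highest summed hepatocyte markers of the colons, -0.82, and their part in its levels was not tested.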

How the results depend on the processing

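Over the 12 diet comparisons, the comparison of tissues and the test between tissues, the count of called members stayed at its reported value under every alternative run: 0 for the diets and for the test between tissues, and 10 for liver against colon, also with slide as a random block (consensus correlation 0.21). The count of all probes called in liver HH vs. LH ran from 0 to 28, with 28 under slide as a block, 17 with those 2 groups alone, 6 with the repeated mouse as 2, and 2 with array weights. For matched against switched diets array weights called 130. Single genes were recomputed for all 10 members in liver HH vs. LH and in liver against colon, and for those under the unadjusted limit in HL vs. LL, LH vs. LL and the matched contrast. With the representative probe they kept their direction except for 3 values in liver HH vs. LH: processed signals gave -0.023 for Apoa2 and -0.031 for Apoe, and the Cy3 channel alone gave -0.182 for Apoe. The cause was not tested. In that comparison Mttp ran from 0.46 to 0.73 and Lipc from 0.53 to 0.92 over all alternatives, with unadjusted p from 0.00059 to 0.029 and from 0.00069 to 0.02, and adjusted p from 0.061 to 0.49 and from 0.074 to 0.5. Without the repair of the background Lipc was 0.74. The repair changed the SD of log2 ratios most on 4 arrays. With and without it, the SD was 0.856 and 0.567 on liver HH 2, and 0.944 and 0.611 on liver HL 5. It was 0.934 and 0.55 on liver HL 6, and 0.811 and 0.53 on colon HH 1. Liver HH 2 was the highest liver for Apoa2 and Apoa5, liver HL 5 for Lipc, and colon HH 1 the highest colon for Apoa2, Apoa5 and Lcat. Leaving out each mouse gave 0.48 to 0.65 for Mttp and 0.53 to 0.71 for Lipc. The correlations kept their sign under both other background settings, and 0 of 6 passed. In the matched contrast Lipc was -0.27 without HL 5 (limma unadjusted p = 0.053) and Apob was -0.3, -0.34, -0.36 and -0.38 without LL 3, LH 5, HH 4 and HH 1 (limma unadjusted p = 0.05, 0.055, 0.057 and 0.051). Processed signals gave -0.25 for Mttp there (limma unadjusted p = 0.068) and the Cy3 channel alone -0.28 (limma unadjusted p = 0.075).

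No paired analysis was possible because the labels give mice no numbers that groups or tissues share: replicates here are numbered in accession order. Slide as a block stands in the report. Signals of Lipc, Mttp and Lcat in the colon were the dimmest of the members', with median Cy3 intensities of 136, 165 and 196, which limits their ratios there.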
